A study of Rattus norvegicus with 8 samples.

Results

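The comparison of colitis under an alpha-linolenic acid (ALA) diet with healthy colon rests on 4 of the 8 arrays of the series, chosen by their titles: 2 arrays of the ALA colitis group and 2 of the healthy group. All rats were female Wistar rats aged 14 weeks, with no genetic change given in the labels, and all were fed their diet for 8 weeks. The ALA colitis group ate a diet enriched with ALA, a plant n-3 fatty acid, and then received dextran sulfate sodium (DSS) at 5% over 7 days to bring on colitis. The healthy group ate a diet enriched with sunflower oil and had no DSS. The comparison therefore carries the colitis and the change of dietary oil together, and the 2 cannot be told apart in it. The n-6 colitis group (2 arrays, sunflower oil and the same DSS course) and the fish oil colitis group (2 arrays, fish oil and the same DSS course) shared the fit and are set beside where a result turns on them. A free-text label field names healthy colon on all 8 samples, so the groups were taken from the titles, which the diet and treatment labels match.

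RNA was extracted from colon tissue and pooled from 6 rats. The healthy group held 6 rats, so both healthy arrays carry the same 6 animals. The ALA group held 10 rats, and the labels do not say whether its 2 arrays carry 1 pool. The p-values therefore measure only the spread between arrays, which may be technical. The 8 arrays shared 1 slide and 1 scan. The ALA arrays lay in columns 1 and 2 of the slide and the healthy arrays in columns 3 and 4 of the same row, so the column on the slide cannot be told apart from the group.

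DSS is a polymer that, given in drinking water, injures the colonic epithelium and lets gut bacteria reach the tissue beneath. The injured wall is known for recruiting neutrophils and monocytes through chemokines, for loss of absorptive cells, which burn butyrate and other fatty acids, and for a later phase of repair. ALA is converted by desaturases and elongases into long-chain n-3 fatty acids, which compete with n-6 arachidonic acid for the enzymes that make prostaglandins and leukotrienes.

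Each array measured 30367 probes, of which 21279 and 20789 were well above background on the ALA arrays, against 20233 and 21010 on the healthy arrays, and 16402 to 20736 on the other 4. Levels are log2 processed signals with the 75th percentile of the same array subtracted, so 0 is the level of that percentile, and differences are ALA colitis minus healthy on the same log2 scale (n = 2 arrays in each group throughout). The ALA arrays correlated with each other at r = 0.95 and the healthy arrays at r = 0.97, while ALA and healthy arrays correlated at r = 0.93 to 0.96 (Pearson, over genes, and genes are not replicates). The defining markers of colon wall were bright in both groups. Epcam, an epithelial adhesion molecule, was at 4.49 and 4.39 on the ALA arrays and 4.66 and 5.34 on the healthy arrays. Myh11, the smooth muscle myosin heavy chain, was at 6.44 and 6.07 in ALA colitis and 6.99 and 6.36 in healthy colon. In bulk tissue, fewer cells of a type and less RNA per cell cannot be told apart, and this holds for every gene below.

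Colon with colitis under ALA had higher levels of neutrophil chemokines, neutrophil and macrophage products, matrix proteases, CC chemokines and receptors, and B cell genes than healthy colon. Genes of fatty acid oxidation, interferon-induced genes, absorptive colonocyte genes and Cyp1a1, a target of the aryl hydrocarbon receptor, were lower. The genes are described by 40 lists of 870 genes in all, of which 750 were tested. The lists and their members were chosen with earlier results of these data known. Shares of a list set beside those of all genes are therefore descriptions and not tests of enrichment. None of the differences named above passed the test across all genes. Of 18171 genes tested, 0 had an adjusted p under 0.05 (limma with Benjamini-Hochberg adjustment), which is 0% of genes tested, and the smallest adjusted p was 0.304. Before adjustment, 1188 genes (6.54%) had p under 0.05: 793 (4.36%) were higher in ALA colitis and 395 (2.17%) were lower. The number of genes past the adjusted threshold was also 0 under each of 11 other processing settings and in 7 of the 8 fits that left 1 array out. Without ALA colitis replicate 1 it was 1: Ctu1, a gene chosen after its values were seen, was lower on the remaining ALA array (log2 difference -7.74, adjusted p = 0.0287, limma).

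Both ALA arrays lay above both healthy arrays for 4085 genes (22.5%) and below both for 3289 (18.1%). A gene is said below to have stood apart where its arrays did not overlap in this way and the log2 difference was at least 1 in size. By that rule 1156 genes (6.36%) stood apart higher and 525 (2.89%) lower in ALA colitis, and the median difference over all genes was 0.04. Every list count below is to be set beside these shares, or beside 4.36% higher and 2.17% lower for an unadjusted p under 0.05. The split depended on the scaling: 68.8% of the genes that stood apart were higher in ALA colitis with the 75th percentile, and 56.4% after quantile normalization (1072 higher and 829 lower). A gene was tested if both arrays of any 1 group held it well above background. A gene seen in ALA colitis alone, or in healthy colon alone, could therefore enter only by being high there. Where neither array of a group was well above background, a gene's fold is given as a bound. The bound takes, on each dim array, the probe's own signal or the faintest signal counted as well above background, whichever was higher. The brighter group's mean is set against it. Such a bound holds only for the background handling used here. With another background correction (normexp), the differences of several leading genes were smaller than their bounds. Among genes well above background on all 8 arrays, 474 stood apart higher and 323 lower. The number with unadjusted p under 0.05 also rested on single arrays. Without healthy replicate 2 it was 296 higher and 417 lower, without ALA colitis replicate 1 it was 521 higher and 344 lower, and without healthy replicate 1 it was 1153 higher and 229 lower. Without either n-6 array it was 1006 higher and 606 lower.

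**Figure D1:**
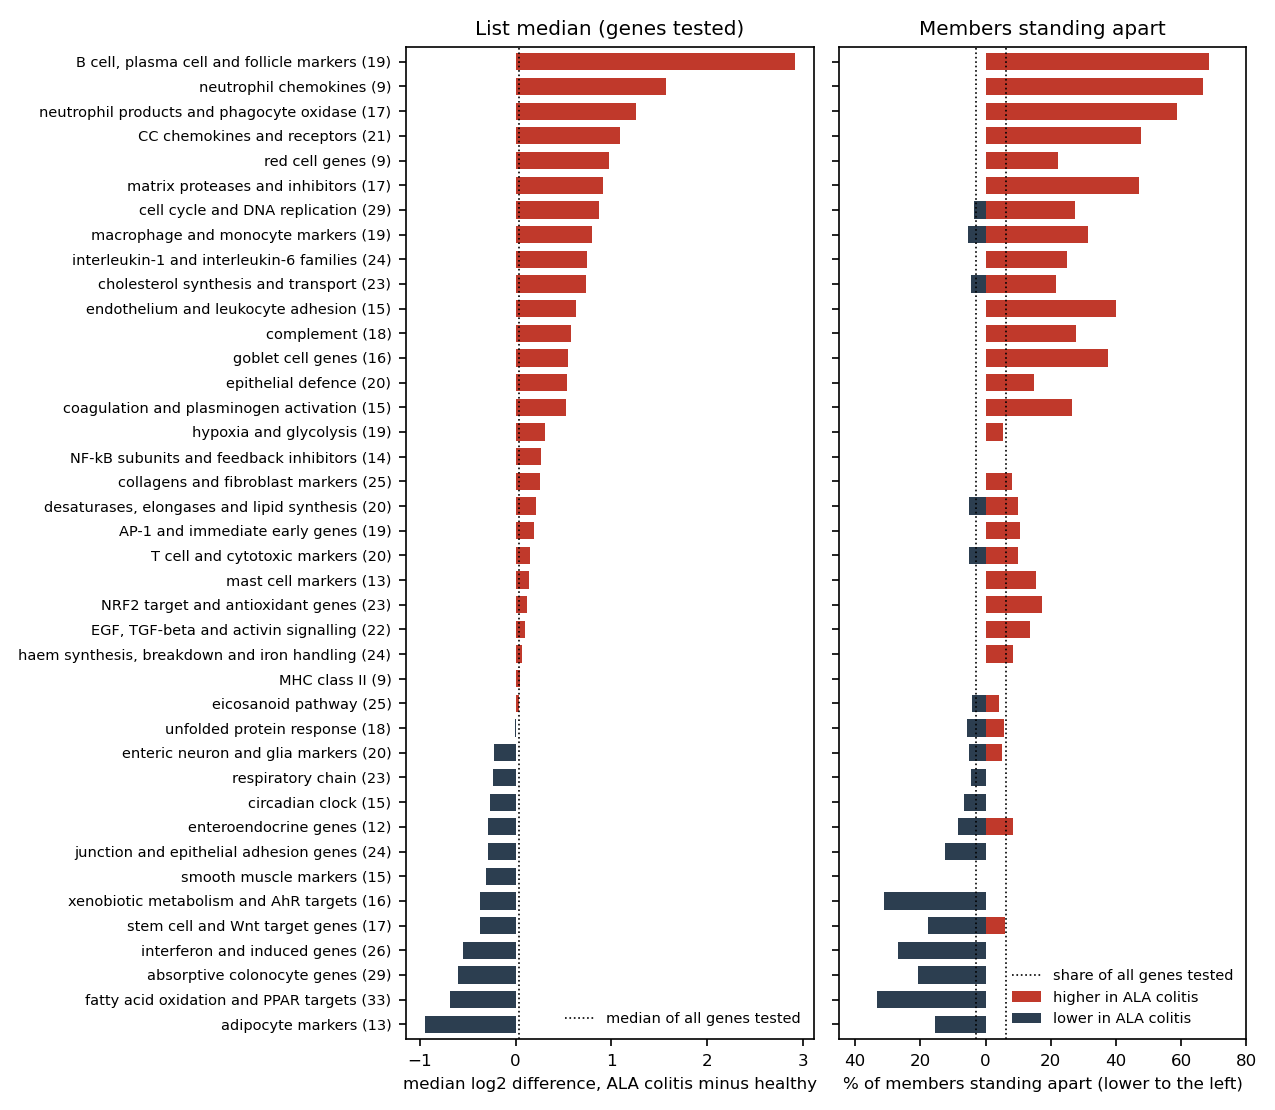
Median log2 difference, ALA colitis minus healthy, of 40 gene lists (left) and the share of each list's members that stood apart, higher to the right and lower to the left (right). Dotted lines mark the same values over all 18171 genes, 6.36% higher and 2.89% lower. With this filter the B cell list had the highest median at 2.92 and the adipocyte list the lowest at -0.95.

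Neutrophil chemokines and their receptors gave some of the widest gaps between the groups. Of 13 genes on the list, 9 were tested, 6 stood apart higher (against 6.36% of all genes), 0 stood apart lower, and all 9 had a positive difference. The list median was 1.57, and it was 2.66 in n-6 colitis and 1.08 in fish oil colitis against the same healthy arrays, which the 3 comparisons share. Cxcl2, a ligand of the neutrophil receptor CXCR2, was at 2.82 and 0.63 in ALA colitis and -3.37 and -3.34 in healthy colon. Both ALA arrays lay far above both healthy arrays, while the ALA arrays themselves were apart by more than the healthy ones. The difference was 5.08 ± 0.89 (SE), or 33.8-fold, with an unadjusted p of 0.000718 and an adjusted p of 0.647 (limma). Cxcl3, a second CXCR2 ligand, was at 1.70 and 1.35 in ALA colitis and -2.51 and -3.46 in healthy colon. Cxcl1, the third tested ligand of that receptor on the list, was at 1.19 and -2.01 against -4.70 and -4.54. All 3 ligands tested showed the same order, with ALA colitis replicate 1 highest and both healthy arrays lowest of these 4. Other ligands of that receptor on the list did not pass the background filter. Their differences were 4.51 ± 0.98 for Cxcl3 and 4.21 ± 1.41 for Cxcl1, with unadjusted p of 0.00247 and 0.0202.

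The other members of that list were less far apart. Csf3, the growth factor that drives neutrophil production, was at 1.40 and -0.26 in ALA colitis and -1.02 and -2.14 in healthy colon. Its receptor Csf3r was at -4.18 and -4.43 against -4.90 and -5.55, a difference of 0.92 ± 0.37. Pf4, a platelet chemokine, was at 0.47 and -0.20 in ALA colitis and -1.19 and -1.41 in healthy colon. Csf3r did not overlap between the groups, and the receptor's ligand did not overlap either. Cxcr4 and its ligand Cxcl12, which hold leukocytes in tissue and marrow, had differences of 1.57 and 0.52 (0.19 for the second Cxcl12 probe), and Cxcr1, a neutrophil receptor for CXC chemokines, was not well above background on the arrays of either group. Genes for NF-kB subunits and their feedback inhibitors, which act upstream of many of these chemokines, had a median difference of 0.27 over 14 tested, and 0 of them stood apart in either direction. That median was 0.0175 without ALA colitis replicate 2 and 0.0185 without healthy replicate 1.

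**Figure D2:**
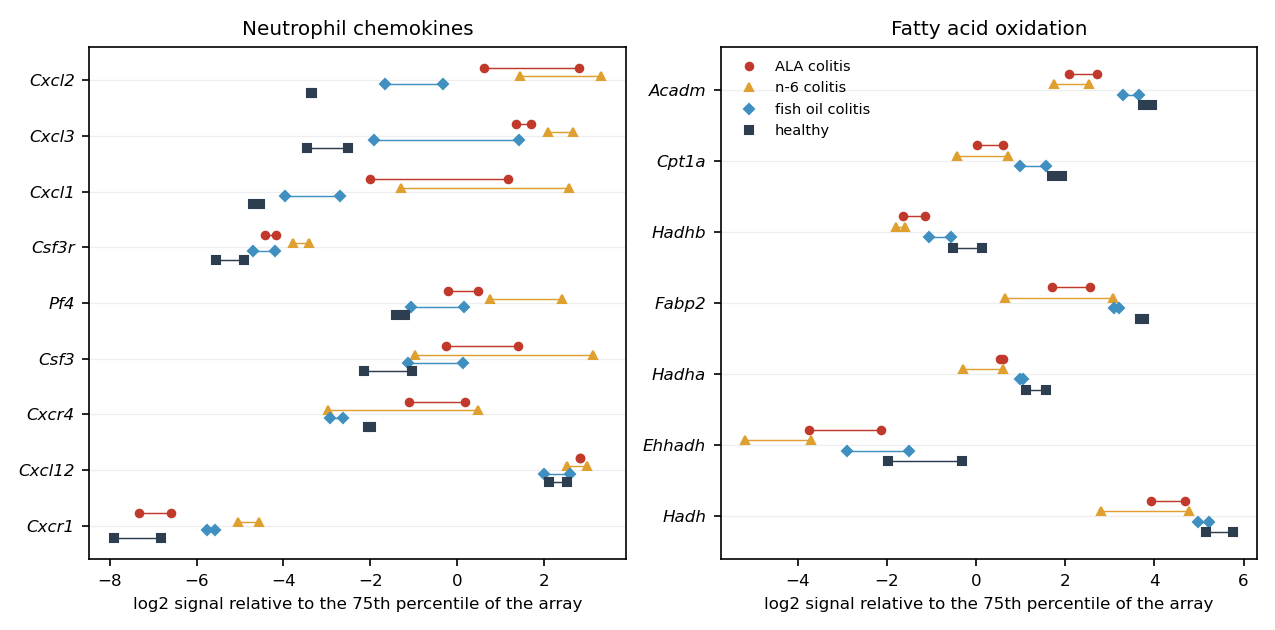
Levels on each array (log2 signal relative to the array's 75th percentile) of the 9 neutrophil chemokine genes tested (left) and of 7 of the 8 fatty acid oxidation genes with the smallest p (right). Points are arrays, coloured by group (ALA colitis, n-6 colitis, fish oil colitis and healthy). Cxcl2 lay at 2.82 and 0.63 on the ALA arrays and -3.37 and -3.34 on the healthy arrays, while Acadm lay at 2.07 and 2.70 against 3.75 and 3.94.

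Products of neutrophils were higher as a group. Of 24 genes for neutrophil products and the phagocyte oxidase, 17 were tested, 10 stood apart higher and 0 lower, 9 had an unadjusted p under 0.05 in the higher direction (against 4.36% of all genes), and the median was 1.26. The rest, which include a defining neutrophil marker, were on the array but did not pass the background filter, so nothing is said of them. S100a8 and S100a9, the 2 subunits of calprotectin, had levels of -2.08 and -4.11 and of 0.12 and -1.63 in ALA colitis, against -4.63 and -6.75 and -2.19 and -3.33 in healthy colon. Neither gene overlapped between the groups, and the differences were 2.59 ± 0.98 for S100a8 and 2.01 ± 0.77 for S100a9. Cybb, the catalytic subunit of the phagocyte NADPH oxidase, was at -3.38 and -2.72 in ALA colitis and -4.45 and -4.54 in healthy colon. Both ALA arrays lay above both healthy arrays for it. Fcnb (ficolin B, a pattern recognition protein of myeloid cells) differed by 1.80 ± 0.58 and Il1r2 (the decoy receptor for interleukin-1) by 1.92 ± 0.78. Cd177, a defining surface marker of neutrophils, overlapped between the groups, at -0.32 and -2.30 in ALA colitis and 0.22 and -1.49 in healthy colon. Of the 11 members well above background on all 8 arrays, 6 stood apart higher, with a median of 1.17.

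Macrophage and monocyte markers had a median of 0.80 over 19 genes tested, with 6 that stood apart higher and 1 lower, and the median was 0.52 without ALA colitis replicate 1. Lyz2, the lysozyme of neutrophils and macrophages, was at 5.49 and 5.56 in ALA colitis and 4.38 and 4.35 in healthy colon. Fcgr2b, the inhibitory receptor for IgG, was at 1.71 and 2.54 against -0.57 and -0.019, and Cd68, a lysosomal protein of macrophages, at 0.45 and 0.29 against -1.27 and -0.99. These 3 genes had the same order of groups, with differences of 1.17 ± 0.29 for Lyz2 and 2.42 ± 0.47 for Fcgr2b, whose second probe gave 1.44. C1qb and C1qc, chains of complement C1q that macrophages make, differed by 1.11 ± 0.33 and 1.22 ± 0.34. Cd163, the macrophage scavenger receptor for haemoglobin, differed by 1.53 ± 0.69. The list median was 1.04 in n-6 colitis against healthy colon and 0.65 in fish oil colitis against healthy colon.

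Interleukin-1 and interleukin-6 family genes had a median of 0.74 over 24 tested, with 6 that stood apart higher and 0 lower. Il1b was at 1.28 and 1.13 in ALA colitis and 0.16 and -0.36 in healthy colon, a difference of 1.30 ± 0.54 with an unadjusted p of 0.0448. Il1rn, which blocks the interleukin-1 receptor, was at 2.04 and 2.17 against 0.72 and 0.86, a difference of 1.31 ± 0.42. Both the cytokine and its antagonist were higher on each ALA array than on either healthy array. Il6r, the receptor for interleukin-6, differed by 1.01 ± 0.40. Il22, a cytokine that drives epithelial repair, was at -3.08 and -3.96 in ALA colitis and -5.30 and -7.94 in healthy colon, at least 5.71-fold higher. Il23a, a subunit of the cytokine that induces it, was at -1.73 and -1.46 against -2.40 and -2.69. Tnf was at 0.59 and 1.34 against 0.29 and 0.41, a difference of 0.62 ± 0.35. Without healthy replicate 2 the list median was 0.36.

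Proteases that cut the extracellular matrix were also higher. Of 17 matrix protease and inhibitor genes tested, 8 stood apart higher and 0 lower, and the median was 0.91, or 0.51 without ALA colitis replicate 1. Of the 8, 2 were not well above background on either healthy array, and 4 stood apart among the 12 members well above background on all 8 arrays. Mmp7 (matrilysin, made by epithelium) was at -1.09 and -2.31 in ALA colitis and -5.41 and -4.44 in healthy colon. Mmp9, a gelatinase that neutrophils carry, was at -3.25 and -4.74 against -6.83 and -7.66. Mmp12, the macrophage elastase, was at -1.93 and -1.68 against -4.79 and -4.75. The inhibitor Timp1 went in the same direction as the proteases, at 4.21 and 3.62 in ALA colitis and 2.36 and 2.03 in healthy colon. The differences were 3.22 ± 0.57 for Mmp7, 2.96 ± 0.97 for Mmp12 and 1.72 ± 0.44 for Timp1, and Mmp9 was at least 4.65-fold higher. Collagen and fibroblast genes differed less, with a median of 0.26 over 25 tested (0.07 to 0.50 when 1 array was left out) and 2 that stood apart higher. Grem1, an antagonist of bone morphogenetic proteins made by stromal cells, had the smallest p of them and differed by 1.98 ± 0.52.

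Genes by which vessels capture leukocytes were in the same direction. Of 15 endothelium and leukocyte adhesion genes tested, 6 stood apart higher and 0 lower, with a median of 0.63. Selp (P-selectin) was at -0.18 and -0.075 in ALA colitis and -3.89 and -2.50 in healthy colon, and Sele (E-selectin) at -5.21 and -4.62 against -6.82 and -7.40, at least 2.45-fold higher. Both selectins lay higher on each ALA array. Madcam1, the gut vessel ligand of integrin alpha4beta7, was at 0.41 and 0.92 in ALA colitis and -1.74 and -1.42 in healthy colon, a difference of 2.25 ± 0.64. Icam1, a ligand of leukocyte integrins, was at 0.085 and 0.83 in ALA colitis and -0.65 and -0.44 in healthy colon, Vcam1, another such ligand, differed by 1.44 ± 0.72, while the pan-endothelial Pecam1 differed by 0.52 ± 0.42. The neutrophil and macrophage lists went in the same direction as the chemokine, protease and adhesion genes. Median levels were -2.08 and -1.96 in ALA colitis and -3.10 and -3.09 in healthy colon over the neutrophil list. Over the macrophage list they were -0.047 and -0.56 against -1.27 and -1.22. Median differences were smaller for T cell and cytotoxic markers (0.15) and mast cell markers (0.14). The part of leukocytes in the chemokine, protease and adhesion results was not tested.

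B cell genes had a median of 2.92 over 19 genes tested, the highest of the 40 lists with this filter. Among members well above background on all 8 arrays it was 1.24, below the 1.86 of the neutrophil chemokines. Of the 19 tested, 13 stood apart higher (against 6.36% of all genes) and 0 lower (against 2.89%). An unadjusted p under 0.05 in the higher direction was found for 10 of the 19 (against 4.36% of all genes). Ms4a1 (CD20, a surface protein of B cells) was at -2.25 and -0.90 in ALA colitis and -5.33 and -5.98 in healthy colon, at least 16.9-fold higher with an unadjusted p of 0.00565 (limma). Cd79a, a signalling chain of the B cell receptor, was at -2.57 and -0.77 against -5.51 and -6.28, at least 18.7-fold higher. For both genes, both ALA arrays were above both healthy arrays, and ALA colitis replicate 2 was the highest of the 4. Blk, a kinase of B cells, was at least 9.36-fold higher. Pou2af1, a B cell coactivator of octamer factors, differed by 4.22 ± 1.41, though its second probe gave 1.61, and Spib, a transcription factor of B cells and other lymphoid cells, by 2.71 ± 0.94. Fcer2 (CD23, found on follicular B cells and follicular dendritic cells) was at -2.38 and -3.06 in ALA colitis and -3.57 and -5.63 in healthy colon.

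The B cell list was sensitive to low signal. When 1 array was left out, its median ran between 2.28 and 4.21. Of its 13 members that stood apart, 5 were not well above background on either healthy array, and 4 of the 9 members well above background on all 8 arrays stood apart higher. With normexp background correction the median over the list was 1.19. Median levels over the list were -1.09 and -0.68 on the ALA arrays, -0.48 and -2.42 on the n-6 arrays, -3.41 and -3.39 on the fish oil arrays and -2.24 and -2.96 on the healthy arrays. The 2 n-6 arrays were far apart, while both fish oil arrays lay below the healthy ones.

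**Figure D3:**
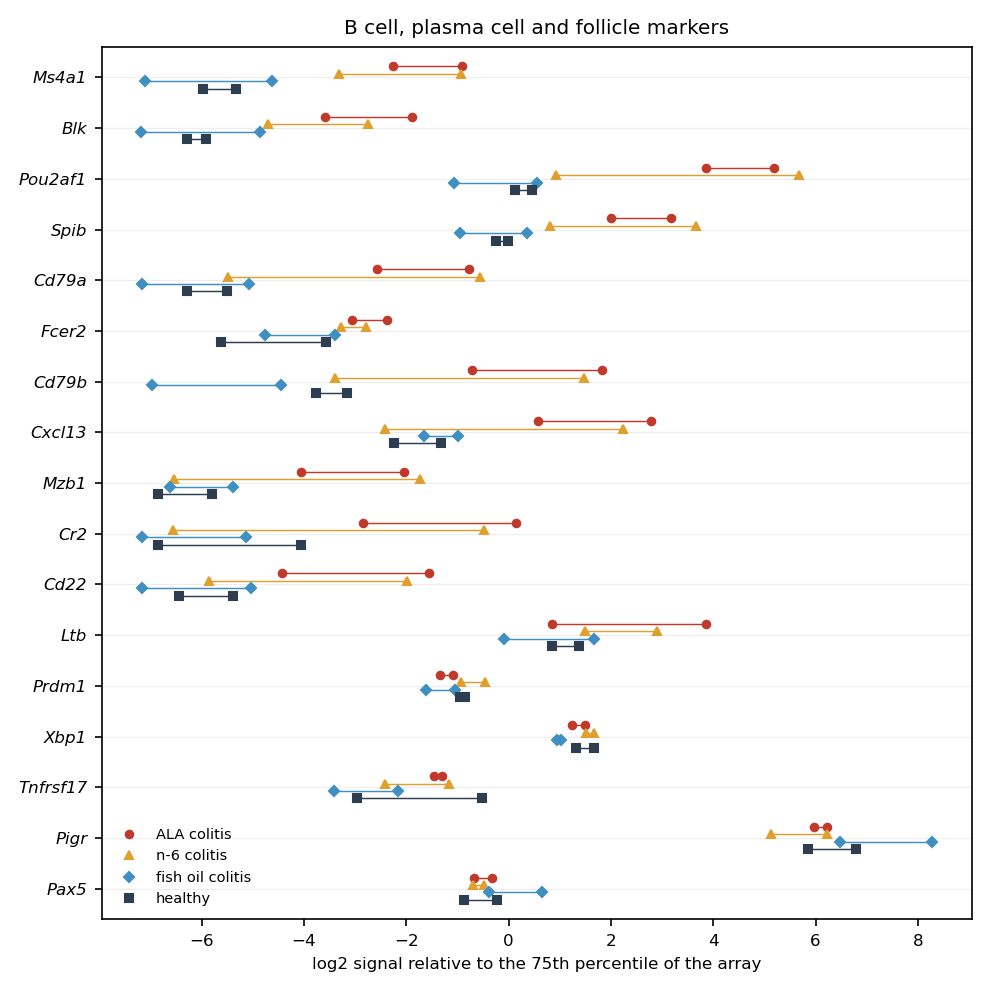
Levels on each array (log2 signal relative to the array's 75th percentile) of 17 of the 19 B cell, plasma cell and follicle genes tested, ordered by p with the smallest at the top. Points are arrays, coloured by group (ALA colitis, n-6 colitis, fish oil colitis and healthy). Ms4a1 lay at -2.25 and -0.90 on the ALA arrays and -5.33 and -5.98 on the healthy arrays.

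CC chemokines and their receptors were also higher. Of 21 tested, 10 stood apart higher and 0 lower, 7 had an unadjusted p under 0.05 in the higher direction, and the median was 1.09. Ccl19 and Ccl21, the ligands of Ccr7 that draw lymphocytes and dendritic cells into lymphoid tissue, were at 4.19 and 6.25 and at 3.14 and 4.21 in ALA colitis, against -2.01 and 0.99 and 1.54 and 1.66 in healthy colon. Ccr6, the receptor for Ccl20 on B cells and T helper 17 cells, was at 1.07 and 3.01 in ALA colitis and -0.61 and -0.77 in healthy colon. The groups did not overlap for these 3 genes. Ccl17 and Ccl22, the ligands of Ccr4, differed by 2.95 ± 1.04 and 1.64 ± 0.58, and Ccl3, a chemokine of myeloid cells, by 1.35 ± 0.50. The part of lymphoid tissue in the dissected pieces was not tested. T cell and cytotoxic markers had a median of 0.15 over 20 tested, which turned to -0.03 after quantile normalization, with 2 that stood apart higher and 1 lower. Ctla4, an inhibitory receptor of T cells, had the smallest p among them, at -3.97 and -4.56 in ALA colitis and -5.90 and -6.51 in healthy colon, at least 3.51-fold higher. MHC class II genes had a median of 0.04 over 9 tested, which turned to -0.01 with median centring and was 0.29 with the mean of probes and with no filter, and 0 stood apart. For RT1-Bb, an MHC class II beta chain, the brightest probe gave 0.04 and a second probe 5.53. When 1 array was left out, the medians ran between -0.51 and 0.65 for the T cell list and between -0.55 and 0.80 for MHC class II.

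Fatty acid oxidation genes were lower in ALA colitis. Of 33 fatty acid oxidation and PPAR target genes tested, 11 stood apart lower (against 2.89% of all genes) and 0 higher, 4 had an unadjusted p under 0.05 in the lower direction (against 2.17%), and 29 of 33 had a negative difference. The median was -0.69, and it was -1.07 in n-6 colitis and -0.39 in fish oil colitis against the same healthy arrays. Acadm, the medium-chain acyl-CoA dehydrogenase, was at 2.07 and 2.70 in ALA colitis and 3.75 and 3.94 in healthy colon, a difference of -1.46 ± 0.39. Cpt1a, which admits long-chain fatty acids to mitochondria, was at 0.029 and 0.60 against 1.70 and 1.93. Each was lower on both ALA arrays than on both healthy arrays. Hadha and Hadhb, the 2 subunits of the mitochondrial trifunctional protein, differed by -0.78 ± 0.38 (-0.42 for a second probe) and -1.20 ± 0.37, and Ehhadh, a peroxisomal enzyme of the same pathway, by -1.79 ± 0.86. Among the 29 members well above background on all 8 arrays, 10 stood apart lower, with a median of -0.71. Respiratory chain genes had a median of -0.24 over 23 tested, with 1 that stood apart lower, and the median was -0.0142 without ALA colitis replicate 2 and -0.40 without ALA colitis replicate 1. Adipocyte markers, several of which respond to the same receptors, had a median of -0.95 over 13 tested with 2 that stood apart lower (-0.25 without healthy replicate 2 and -0.40 without ALA colitis replicate 1), and their part in the fatty acid oxidation values was not tested.

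Absorptive colonocyte genes had a median of -0.61 over 29 tested, with 6 that stood apart lower and 0 higher, and the median was -0.27 without ALA colitis replicate 2. Slc9a3, the apical sodium-proton exchanger, was at -4.65 and -3.31 in ALA colitis and -2.40 and -2.29 in healthy colon. Slc5a8, a sodium-coupled transporter of butyrate and other monocarboxylates, was at 1.08 and -1.52 against 1.52 and 0.78. The groups overlapped for Slc5a8 and not for Slc9a3. Vil1 (villin, of the brush border) differed by -1.47 ± 0.89, and Slc16a1, a monocarboxylate transporter, by -0.76 ± 0.58. Fabp2, an intracellular fatty acid binding protein, differed by -1.59 ± 0.74. Some of these genes split the ALA pair. Car1, a carbonic anhydrase of surface colonocytes, was at 1.41 and 6.77 in ALA colitis and 6.65 and 7.72 in healthy colon. Scnn1g, a subunit of the epithelial sodium channel, was at 3.24 and -5.04 against -4.08 and -4.50. For both genes the 2 ALA arrays were further apart than the means of the groups. Junction and epithelial adhesion genes had a median of -0.29 over 24 tested, with 3 that stood apart lower. That median was -0.0723 without ALA colitis replicate 2, -0.15 without healthy replicate 2 and -0.52 without ALA colitis replicate 1. Dsc2 (desmocollin 2, of desmosomes) differed by -1.34 ± 0.49, F11r (a tight junction adhesion molecule) by -0.93 ± 0.37 and Cgn (cingulin, of the tight junction plaque) by -1.15 ± 0.49. General epithelial markers were closer, with differences of 0.0023 for Cdh1 (E-cadherin) and -0.30 for Krt20 (a keratin of differentiated epithelium). The part of cell numbers in the colonocyte values was not tested.

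Interferon and interferon-induced genes were lower as a group. Of 26 tested, 25 had a negative difference, and 7 stood apart lower (against 2.89% of all genes) and 0 higher (against 6.36%). An unadjusted p under 0.05 in the lower direction was found for 6 (against 2.17%). The median was -0.56 (0.04 over all genes), or -0.86 without ALA colitis replicate 2 and -0.88 without healthy replicate 1. Cxcl9, a chemokine that interferon gamma induces, was at -2.29 and -1.42 in ALA colitis and -0.73 and -0.013 in healthy colon. Usp18, which removes ISG15 from proteins, was at -2.15 and -1.12 against -0.46 and 0.67. Oas1a, an antiviral oligoadenylate synthetase, was at -1.16 and -0.56 against 0.27 and 0.90. The ALA arrays were lower than both healthy arrays for each. Their differences were -1.49 ± 0.43, -1.74 ± 0.50 and -1.44 ± 0.55, and the second probe of Usp18 gave -1.61. Cxcl11, a further ligand of CXCR3, differed by -1.36 ± 0.51, Isg15 by -1.13 ± 0.47 and Ifng by -0.83 ± 0.33. All members that stood apart were well above background on all 8 arrays. The list median was -0.80 in n-6 colitis and -0.42 in fish oil colitis, against the same healthy arrays.

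Cyp1a1, the cytochrome P450 that the aryl hydrocarbon receptor (AhR) induces, was the gene with the smallest p among those lower. It was at -5.25 and -6.14 in ALA colitis and -1.86 and -2.03 in healthy colon. The ALA arrays were not well above background for it, and both lay far below the healthy arrays. Its difference was -3.75 ± 0.40, with an unadjusted p of 3.35e-05 and an adjusted p of 0.304 (limma). The bound equalled the plain fold, 13.4-fold lower in ALA colitis, and with normexp background the difference was -1.03. On the n-6 arrays Cyp1a1 was at -6.86 and -6.22 and on the fish oil arrays at -5.66 and -5.44. None of the 6 colitis arrays was well above background for Cyp1a1. It therefore entered the test only by being high in healthy colon, so lower values in colitis were built into its selection. In n-6 colitis against healthy colon it was 1 of 7 genes with an adjusted p under 0.05 (0.0385% of genes tested). Of 16 xenobiotic metabolism and AhR target genes tested, 5 stood apart lower and 0 higher, with a median of -0.37. Of the 5, 2 were not well above background on either ALA array, and 3 were well above background on all 8 arrays. The median was -0.10 with no filter, -0.61 with quantile normalization and -0.70 without ALA colitis replicate 1. Ahrr, the repressor that the receptor induces, was at 0.96 and 0.023 in ALA colitis and 1.57 and 1.58 in healthy colon, and Ahr itself differed by -0.38 ± 0.37. Cyp2c23, an epoxygenase of arachidonic acid in rat, was at -5.17 and -5.99 in ALA colitis and -3.22 and -4.01 in healthy colon. It was 3.91-fold lower, where the bound again equalled the plain fold, and with normexp background the difference was -0.23. Abcg2, an efflux pump of the apical membrane, differed by -1.07 ± 0.76.

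Stem cell and Wnt target genes had a median of -0.37 over 17 tested, with 3 that stood apart lower and 1 higher. The median was 0.0067 without ALA colitis replicate 1. Lrig1, a restraint on growth factor receptors in stem cells, differed by -0.90 ± 0.33, Ephb3, a receptor that positions crypt cells, by -1.67 ± 0.62 and Ascl2, a transcription factor of intestinal stem cells, by -2.01 ± 0.80. Cell cycle and DNA replication genes had a median of 0.88 over 29 tested, with 8 that stood apart higher and 1 lower but 0 with an unadjusted p under 0.05. Cdc6, which loads the replicative helicase, was at -1.79 and -1.42 in ALA colitis and -2.43 and -3.11 in healthy colon, and Rrm2, a subunit of ribonucleotide reductase, was at 5.31 and 4.16 against 3.62 and 3.12. The median of that list was 0.50 without ALA colitis replicate 2. It was 0.31 in n-6 colitis and -1.08 in fish oil colitis against the same healthy arrays.

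Goblet cell genes divided. Of 16 tested, 6 stood apart higher and 0 lower, 7 had a negative difference, and the median was 0.55, or 0.05 without ALA colitis replicate 1 and 0.26 without healthy replicate 1. The members named below all had a positive difference, while differences over the list ran from -1.3 to 5.14. Tff3, the trefoil peptide that goblet cells secrete with mucus, was at 4.97 and 3.42 in ALA colitis and 1.93 and 1.53 in healthy colon. Fcgbp, a mucus protein, was at 1.09 and 0.49 against -0.79 and -0.92. Retnlb, an antimicrobial goblet cell product, was at 3.65 and -0.59 against -0.90 and -6.33. Its ALA arrays were further apart than those of Tff3 and Fcgbp, as were its healthy arrays. The differences were 2.47 ± 0.51 for Tff3, 1.65 ± 0.42 for Fcgbp and 5.14 ± 1.86 for Retnlb. Clca1 and Zg16, 2 further secreted mucus proteins, were likewise higher on both ALA arrays (4.79 and 3.13 against 2.95 and 1.98 for Clca1, and a difference of 1.13 ± 0.55 for Zg16). Muc2, the gel-forming mucin of the colon, overlapped between the groups, at 5.35 and 5.07 in ALA colitis and 5.12 on the higher healthy array, and its other probes gave differences of 0.38 and -0.10.

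Epithelial defence genes had a median of 0.54 over 20 tested, with 3 that stood apart higher and 0 lower, and the median was 0.29 without ALA colitis replicate 1. Itln1 (intelectin, which binds microbial sugars) was at 5.56 and 2.81 in ALA colitis and -1.25 and 0.82 in healthy colon, and Slpi, a leukocyte protease inhibitor, at 2.53 and 1.80 against 1.05 and 0.044. Duoxa2, the maturation factor of the epithelial oxidase Duox2, differed by 1.38 ± 0.45 and Duox2 by 0.38 ± 0.34. Complement genes had a median of 0.58 over 18 tested, with 5 that stood apart higher, and the median was 0.38 without ALA colitis replicate 1. Cd55, which protects cells from complement, differed by 1.42 ± 0.29 (0.85 for its second probe) and C5ar1, the receptor for C5a, by 1.02 ± 0.34. Coagulation and plasminogen activation genes had a median of 0.53 over 15 tested, with 4 that stood apart higher, and the median was 0.26 without ALA colitis replicate 1. A2m, a broad protease inhibitor of plasma, was the furthest apart of them, at 0.29 and 2.12 in ALA colitis and -3.35 and -3.08 in healthy colon, and its second probe gave a difference of 4.41 beside 4.42. F3 (tissue factor) differed by 1.38 ± 0.42.

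Among the members tested, the enzymes that act on dietary fatty acids differed little as groups. Of 20 desaturase, elongase and lipid synthesis genes tested, 2 stood apart higher and 1 lower, and the median was 0.21 (0.14 to 0.38 when 1 array was left out). Scd2, a stearoyl-CoA desaturase, was at 3.15 and 3.16 in ALA colitis and 2.12 and 1.64 in healthy colon, a difference of 1.28 ± 0.37. Scd, its paralog, was at 0.20 and 4.34 against -0.30 and -2.89, with the ALA arrays apart by more than the healthy ones, and its second probe gave a difference of 1.46 beside 3.87. Elovl5, an elongase of polyunsaturated fatty acids, differed by -1.02 ± 0.49 and Fads1, the delta-5 desaturase, by 0.61 ± 0.32. Of 31 eicosanoid pathway genes on the array, 25 were tested and the rest did not pass the background filter, so nothing is said of them. The median of those tested was 0.03, with 1 that stood apart in each direction. That median ran between -0.22 and 0.25 when 1 array was left out. Ptges2, a prostaglandin E synthase, differed by -0.88 ± 0.32, Ptger4, a receptor of prostaglandin E2, by -0.88 ± 0.41 and Hpgd, which breaks prostaglandins down, by -1.05 ± 0.54. The eicosanoid median was negative with median centring (-0.02) and with quantile normalization (-0.05).

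Cholesterol synthesis and transport genes had a median of 0.73 over 23 tested, with 5 that stood apart higher and 1 lower, and the median was 0.35 without ALA colitis replicate 1. Apoe, a lipoprotein that macrophages also secrete, was at 4.80 and 5.17 in ALA colitis and 3.12 and 3.24 in healthy colon. The synthesis enzymes Lss and Idi1 differed by 1.29 ± 0.42 and 1.40 ± 0.47, and Abcg5, a sterol exporter, by 1.77 ± 0.69. NRF2 target and antioxidant genes had a median of 0.12 over 23 tested, with 4 that stood apart higher, and the median ran between -0.12 and 0.37 when 1 array was left out. Of the 23, 14 had a positive difference and 9 a negative one, down to -1.08. Slc7a11, the cystine importer, was at 0.0043 and -0.38 in ALA colitis and -4.23 and -4.11 in healthy colon, a difference of 3.98 ± 0.73, and Hmox1, which breaks down haem, was at 1.30 and 0.47 against -1.68 and -1.05.

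The 12 higher genes with a symbol and the smallest p that stood apart were Rln1, Izumo1r, Ftx, Cbln1, Htra4, Vom1r98, Pram1, A2m, Plagl1, Tfec, Dydc1 and Cxcl2. None of them passed the adjusted test. Rln1, the hormone relaxin, was at -3.17 and -3.44 in ALA colitis and -6.50 and -6.68 in healthy colon. It was not well above background on either healthy array or on any n-6 or fish oil array, and it was at least 7.25-fold higher in ALA colitis. The difference was 3.29 ± 0.32 with an adjusted p of 0.304 (limma), and n-6 colitis lay at -6.94 and -6.34. Htra4, a secreted serine protease, was at -1.42 and -1.58 in ALA colitis and -5.05 and -5.25 in healthy colon. Cbln1, a secreted protein known from cerebellar synapses, was at -1.69 and -1.61 against -6.84 and -6.12, at least 18.8-fold higher. Pram1, an adaptor of myeloid cells, was at -2.13 and -1.67 against -3.81 and -4.56, and Tfec, a transcription factor found in macrophages, was at -4.46 and -4.80 against -6.86 and -7.95, at least 2.99-fold higher. These 5 genes were picked by small p among those that stood apart, so ALA arrays that lie close together and above both healthy arrays restate that choice. Tfec, like Rln1, was well above background on no array outside ALA colitis, so both entered the test only by being high there. With normexp background the differences were 0.75 for Rln1 and 0.46 for Tfec.

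The 12 lower genes chosen in the same way were Cyp1a1, Ly49i2, Tex15, Cnmd, Acsbg1, Cyp2c23, Slc6a20a, Ephb1, Cdrt15l2, Prxl2a, Cbr3 and Mier3. Of these, Cyp1a1, Cnmd, Cyp2c23, Ephb1 and Cdrt15l2 entered the test only through the healthy group, by being high there. With normexp background their differences ran from -1.03 (Cyp1a1) to -0.04 (Ephb1). Ly49i2, of the Ly49 family of natural killer cell receptors, was at -4.34 and -4.75 in ALA colitis and -1.59 and -1.78 in healthy colon. Members of that family are alike in sequence, so the probe may not tell them apart. Acsbg1, an acyl-CoA synthetase, was at -1.01 and -0.80 against 1.16 and 3.20, a difference of -3.08 ± 0.64. Cbr3, a carbonyl reductase, differed by -1.37 ± 0.30, Ephb1, an ephrin receptor, was at least 2.55-fold lower, and Cnmd (chondromodulin) at least 3.33-fold lower. Slc6a20a, a transporter of imino acids, differed by -1.76 ± 0.37, Tex15, known from male germ cells, by -2.22 ± 0.40, Mier3 by -2.03 ± 0.45, and Prxl2a by -1.39 ± 0.31. Cdrt15l2 was at least 1.99-fold lower, with a fitted difference of -2.18 that reversed to 0.52 when probes were not filtered on background.

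**Figure D4:**
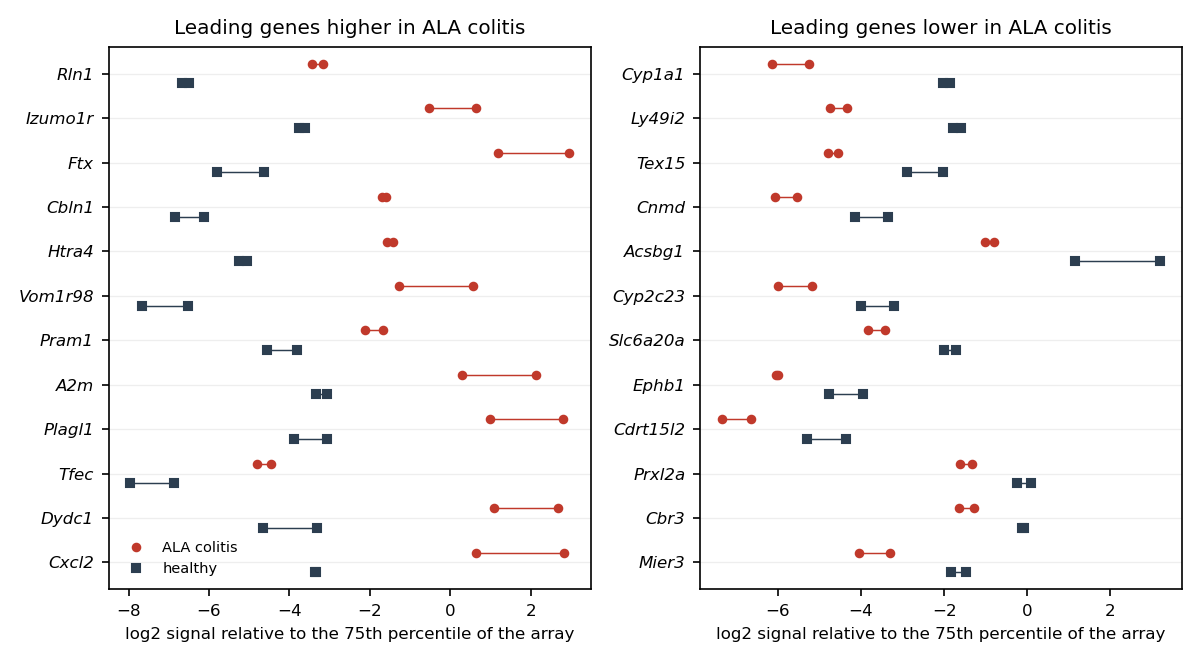
Levels on each ALA colitis and healthy array (log2 signal relative to the array's 75th percentile) of the 12 higher and 12 lower genes with the smallest p that stood apart. Points are arrays, coloured by group. Vom1r98 lay at 0.56 and -1.27 on the ALA arrays and -6.51 and -7.67 on the healthy arrays, and Cyp1a1 at -5.25 and -6.14 against -1.86 and -2.03.

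Several of the leading higher genes shared letters in their probes. Each probe is a DNA strand of about 60 bases. All 7-letter words were ranked by the median difference of the genes whose probe holds them (10933 words in at least 30 genes), and the 3 words with the highest medians overlap one another: CCTAACC (41 genes, median 1.44), CTAACCC (47 genes, median 1.13) and CCCTAAC (37 genes, median 0.99). The fourth, GGTATGA, had a median of 0.61. The probes are shown so that the shared letters can be seen. They are those of 5 of the 12 leading higher genes and of 3 further genes chosen after their values were seen. Capitals mark the stretch that holds a word, together with any adjoining AACCC, and positions are those in the scanner files (rn4 build).
Izumo1r, chr8:11701351-11701410, minus strand: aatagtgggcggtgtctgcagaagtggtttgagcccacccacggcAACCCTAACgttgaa
Ftx, chrX:91518877-91518936, minus strand: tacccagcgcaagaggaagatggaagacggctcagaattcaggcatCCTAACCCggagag
Vom1r98, chr4:124057171-124057230, plus strand: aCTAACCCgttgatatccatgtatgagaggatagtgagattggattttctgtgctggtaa
Plagl1, chr1:7921813-7921873, plus strand: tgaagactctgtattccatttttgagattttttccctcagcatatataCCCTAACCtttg
Dydc1, chr16:17523127-17523186, plus strand: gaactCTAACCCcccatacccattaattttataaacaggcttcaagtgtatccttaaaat
Dlk1, chr6:134028313-134028372, plus strand: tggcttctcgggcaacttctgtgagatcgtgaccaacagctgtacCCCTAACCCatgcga
Pcsk1, chr2:1969912-1969971, plus strand: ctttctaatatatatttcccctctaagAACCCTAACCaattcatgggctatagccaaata
Rfx5, chr2:189860883-189860942, plus strand: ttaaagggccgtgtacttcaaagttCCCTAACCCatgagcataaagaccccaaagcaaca
For comparison, the probes of Rln1, Cxcl2 and Cyp1a1 hold none of the words.
Rln1, chr1:233000720-233000779, minus strand: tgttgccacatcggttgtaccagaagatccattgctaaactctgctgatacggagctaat
Cxcl2, chr14:18677165-18677224, minus strand: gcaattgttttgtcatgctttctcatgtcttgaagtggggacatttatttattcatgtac
Cyp1a1, chr8:61468133-61468192, plus strand: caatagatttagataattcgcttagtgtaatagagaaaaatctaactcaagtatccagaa

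The genes named by these 8 probes have unlike roles. Izumo1r is an egg surface receptor for sperm that T cells also carry, Ftx a long noncoding RNA of the X inactivation centre, Vom1r98 a pheromone receptor, Plagl1 a zinc finger transcription factor, Dlk1 a transmembrane regulator of differentiation, Pcsk1 a prohormone convertase and Rfx5 an activator of MHC class II genes. Vom1r98 was at 0.56 and -1.27 in ALA colitis and -6.51 and -7.67 in healthy colon, at least 57.9-fold higher. Ftx was at 2.94 and 1.19 against -4.63 and -5.81, and Plagl1 at 2.80 and 0.98 against -3.89 and -3.07. In these 3 genes ALA colitis replicate 1 was the highest of the 4 arrays. Dlk1, Pcsk1 and Rfx5 had values close to one another on the ALA arrays: 3.91 and 3.49, 3.97 and 3.67, and 3.96 and 3.58 in ALA colitis, against -5.40 and 0.90, -3.47 and 1.18, and -3.37 and 1.62 in healthy colon. For all 3, healthy replicate 1 was far below the other 3 arrays.

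Over all 100 genes whose probe holds any of the 3 words (0.55% of genes tested), the median difference was 0.79, 41 stood apart higher and 0 lower, and 31 (31.0%) had a difference over 2. Over all genes, 410 (2.26%) had a difference over 2, and over the 17225 genes whose probe holds no AACCC it was 346 (2.01%). The 45 genes whose probe holds a word on the opposite strand had a median of -0.02, and 0 of them a difference over 2. Median levels of the 100 genes were 0.66 and -0.15 on the ALA arrays, -0.06 and 0.46 on the n-6 arrays, -0.41 and -1.21 on the fish oil arrays, and -2.40 and -1.79 on the healthy arrays. All 6 colitis arrays were thus above both healthy arrays by this measure. Of the 10 largest positive differences without overlap, 7 came from such probes, and 23 of the 100 largest did. A second probe of the same gene without a word gave smaller differences: 1.97 against 7.29 for Ftx (where the second probe holds AACCC), 0.75 against 5.37 for Plagl1, and 0.94 against 2.33 for Bcas1, a gene chosen after its values were seen. The words and genes were picked for these values, so the counts are a description, and the part the letters play in the signal was not tested. Of the 750 list members tested, 4 hold a word (Guca2a, Pcsk1, Muc2 and Myc) and 36 hold AACCC, among them Retnlb, Duoxa2, C5ar1 and Ascl2, so the lists above rest mostly on other probes. Without probes that hold AACCC, a setting chosen after seeing the data, 1037 genes stood apart higher and 507 lower.

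**Figure D5:**
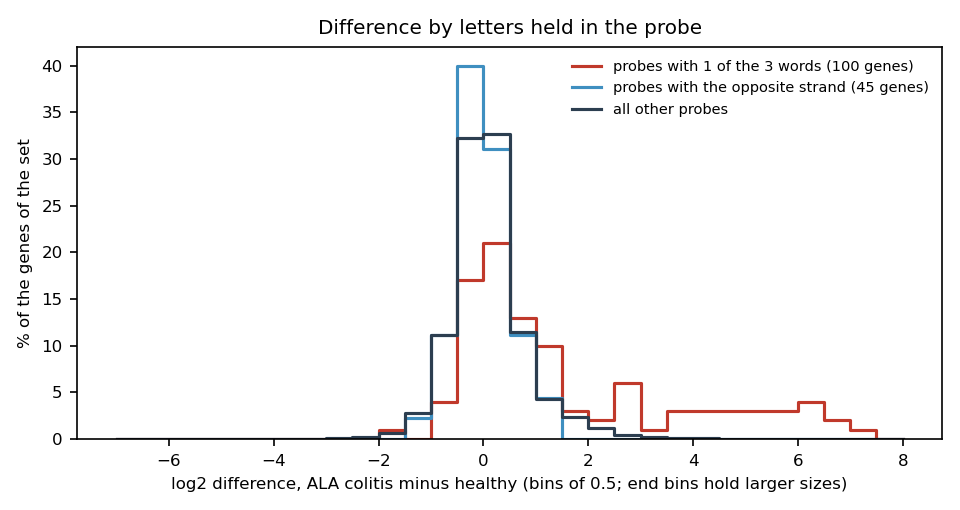
Share of genes (%) by log2 difference, ALA colitis minus healthy, in bins of 0.5, for genes whose probe holds 1 of the 3 words (100 genes), the opposite strand of a word (45 genes) or neither. Of the first set, 31.0% had a difference over 2, and of the second 0.

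Red cell genes set ALA colitis apart from n-6 colitis. Of 9 red cell genes tested, all 9 had a positive difference from healthy colon in ALA colitis, 5 had an unadjusted p under 0.05, 2 stood apart higher, and the median was 0.98, against 4.64 in n-6 colitis over the same healthy arrays. Hba-a1, an alpha globin, was at 2.96 and 2.87 in ALA colitis and 7.06 and 6.50 in n-6 colitis, with 1.95 and 1.81 in healthy colon. Hbb, a beta globin, was at 1.84 and 1.95 in ALA colitis and 5.78 and 5.42 in n-6 colitis, with 1.06 and 0.85 in healthy colon. The ALA arrays lay a little above the healthy arrays and far below the n-6 arrays, while fish oil colitis lay at 2.60 and 2.44 for Hba-a1 and 0.93 and 1.38 for Hbb. Tested directly, 5 of 18171 genes (0.0275%) differed between ALA and n-6 colitis at an adjusted p under 0.05, and 1055 (5.81%) had an unadjusted p under 0.05 (limma). The 4 lower in ALA colitis were the globins Hbb-b1, Hbb, Hbe2 and Hba-a1, by -4.35, -3.70, -4.34 and -3.86 on the log2 scale, with adjusted p of 0.0324 for 3 of them and 0.0427 for Hbe2. Globin genes are alike in sequence, so their probes may not be independent. The 1 gene higher in ALA colitis was Lpal2, at -1.67 and -1.64 in ALA colitis and -5.87 and -6.51 in n-6 colitis, with an adjusted p of 0.0324. Lpal2 lies outside the rule for named genes and was chosen after its values were seen. All 5 calls were lost when any 1 of the 8 arrays was left out, and slide row and group cannot be told apart in this comparison.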

How the data were processed

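Colon RNA was labelled with Cy3 and hybridised to 8 custom rat arrays, 1 colour each, per the labels' protocols. The deposited scanner files hold spot intensity values from Agilent Feature Extraction 11.5.1.1, which subtracted background and removed spatial trends on each array, per the file headers. A deposited table gives log2 values of 26205 gene names. Set against the scanner files it correlated at r = 0.986 to 0.992 on each array, which bore out its log2 scale and direction, and its array medians ran from -3.18 to -2.89. No source used here gives how it joined probes, and it served as an alternative. No column of another sample was used (0).

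From the scanner files, control spots and outlier spots were left out, spots of a probe were averaged, and each array's 75th percentile was subtracted on the log2 scale. Probes entered if both arrays of any 1 group held them well above background (20801 of 30367), and a gene was given by its brightest probe, which left 18171 genes, of which 13175 had a symbol from the RefSeq table (GRCr8, used for names). 8622 probes matched none of its names and kept that of the file. For 2365 genes more than 1 probe passed. In 8 genes an outlier spot left an array without a value, and the fit dropped that array for that gene. limma 3.58.1 in R 4.3.3 fitted the 4 groups together (4 residual degrees of freedom), two-sided, with Benjamini-Hochberg adjustment over all genes at 0.05. The fit was tested on simulated data.

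The members of the lists and the lists themselves were chosen with earlier results of these data known. Genes named are up to 12 higher and 12 lower with a symbol, by adjusted p under 0.05 and then by smallest unadjusted p among those that stood apart, and up to 8 members a list by smallest p, or a whole list of up to 12, besides defining cell type markers. A few list members are not reported here by name, though counts and medians include them. Alternatives were normexp background (offset 50), median centring, quantile normalization, other filters, the mean of probes, a trended robust prior, only the groups compared, the replicate number as a block, the deposited table, leaving out each array, and, added after seeing the data, leaving out probes that hold AACCC.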

Additional observations from a re-analysis of the deposited data

Results flagged for a closer look

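The 4 globin genes were singled out because their change from healthy colon differed between ALA and n-6 colitis in the direct test of that difference. ALA colitis lay below n-6 colitis by a log2 difference of -4.35 for Hbb-b1, -3.70 for Hbb, -3.86 for Hba-a1 and -4.34 for Hbe2, with adjusted p of 0.0324, 0.0324, 0.0324 and 0.0427 (limma). Against healthy colon, ALA colitis was higher by 0.95, 0.94, 1.04 and 0.98, and n-6 colitis by 5.30, 4.64, 4.90 and 5.31, in the same order of genes. Both ALA arrays lay between the healthy and the n-6 arrays for each of the 4. The calls were lost (0 genes passed, limma) with no filter, with the mean of probes, with only the 2 groups compared, with the replicate block, with the deposited table and when any 1 array was left out. The 2 comparisons with healthy colon share the healthy arrays.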

How the results depend on the processing

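The count of genes with an adjusted p under 0.05 between ALA colitis and healthy colon was 0 under every setting tried, except that it was 1 without ALA colitis replicate 1, so leaving out 1 array gave 0 to 1. A fit that leaves out an array assumes that the lone array left in that group varies like the other groups. The count with unadjusted p under 0.05 was 1188 and ran between 645 (normexp background) and 1417 (quantile normalization) among settings with all arrays and without a block, and between 713 and 1612 when 1 array was left out. The numbers that stood apart were 354 higher and 146 lower with normexp, and 2153 higher and 619 lower with no filter, against 1156 and 525. Of the genes with unadjusted p under 0.05, 66.8% were higher in ALA colitis, and 55.3% after quantile normalization. Of 438 values of the 24 leading genes under the alternatives, 1 reversed in sign: Cdrt15l2, -2.18, was 0.52 with no filter. That count leaves out changes in size. With normexp each of the 24 differences kept its sign and was smaller in size. Ephb1 went from -1.66 to -0.04, Cnmd from -2.05 to -0.22, Tfec from 2.78 to 0.46 and Cyp1a1 from -3.75 to -1.03. Acsbg1 moved less, from -3.08 to -2.74. Some leading genes, among them Rln1 and Cyp1a1, had no value with only probes above background on all arrays. Of 760 list medians, 24 changed sign, all in lists with a median under 0.5 in size. Both this count and that of the leading genes include settings that cannot move a difference, so they overstate stability. These settings are the trended robust prior, only the groups compared, the replicate block, and leaving out an n-6 or fish oil array. With normexp the medians were 0.60 for neutrophil products, 0.45 for macrophages, 0.38 for interleukin-1 and interleukin-6 families and 0.49 for red cell genes. The cause of these shifts was not tested.

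Between ALA and n-6 colitis, the count of 5 was 4 to 6 under other normalizations, with only probes above background on all arrays, under a moderated trend and without probes that hold AACCC, and 0 with no filter, with the mean of probes, with only the 2 groups compared, with the deposited value table and when any 1 array was left out (0 to 0). Between these groups 1055 genes had an unadjusted p under 0.05, against 514 with normexp and 844 to 1850 when 1 array was left out. The labels give the groups the same replicate numbers without saying what a number marks. Deviations of same-numbered ALA and healthy arrays correlated at r = 0.47 across genes, over 2 pairs, which cannot establish a pairing. With replicate number as a block, 0 genes passed between ALA and healthy and 0 between ALA and n-6, and 1575 had an unadjusted p under 0.05 between ALA and healthy.

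Depth on an array is signal over background: 2 arrays a group, pooled RNA and probes near background in healthy colon limit these differences, and the low group's level is then a bound.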

Other observations

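The remaining lists had medians under 0.4 in size between ALA colitis and healthy colon. Smooth muscle markers had a median of -0.31 over 15 tested and 0 stood apart, and the median was 0.11 without healthy replicate 1 and -0.73 without healthy replicate 2. Enteric neuron and glia markers had a median of -0.23 over 20 tested, with 1 that stood apart in each direction, and the median was 0.03 without ALA colitis replicate 2, 0.04 without healthy replicate 1 and -0.43 without healthy replicate 2. Of the 20, 12 had a negative difference and 8 a positive one, with the lowest at -1.13. Gfap, the filament protein of glia, had the smallest p among them and went against the list median. It was at -3.40 and -4.19 in ALA colitis and -5.10 and -6.01 in healthy colon, at least 3.38-fold higher. Mast cell markers had a median of 0.14 over 13 tested, with 2 that stood apart higher, and the median was 0.58 without ALA colitis replicate 1 and -0.31 without ALA colitis replicate 2. Fcer1g, a signalling chain shared by Fc receptors of myeloid cells, differed by 0.69 ± 0.28, and Kit, the receptor for stem cell factor, by -0.95 ± 0.45. Enteroendocrine genes had a median of -0.29 over 12 tested, with 1 that stood apart in each direction. That median was -0.06 without ALA colitis replicate 2, -0.14 without healthy replicate 1 and -0.50 with quantile normalization. Pcsk1, the higher one, is read by a probe that holds one of the words above.

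Immediate early and AP-1 genes had a median of 0.19 over 19 tested, with 2 that stood apart higher and 0 lower, and the median was 0.37 without healthy replicate 1 and -0.07 without healthy replicate 2. Fosl1, an AP-1 subunit, was at -3.68 and -3.85 in ALA colitis and -5.28 and -4.71 in healthy colon, a difference of 1.23 ± 0.35 that did not pass (adjusted p = 0.71, limma). Growth factor genes of the EGF, TGF-beta and activin families had a median of 0.10 over 22 tested, with 3 that stood apart higher. Their median was -0.11 without ALA colitis replicate 1, 0.46 without ALA colitis replicate 2 and -0.10 without healthy replicate 2. Ereg (epiregulin, a ligand of the EGF receptor) differed by 1.84 ± 0.68 and Inhba, a subunit of activin A, by 1.01 ± 0.42. Hypoxia and glycolysis genes had a median of 0.31 over 19 tested with 1 that stood apart higher, and the median was -0.16 without ALA colitis replicate 1 and 0.61 without ALA colitis replicate 2. Unfolded protein response genes had a median of -0.0046 over 18 tested, with 1 that stood apart in each direction, and the median was -0.25 without healthy replicate 1 and 0.09 without healthy replicate 2. Circadian clock genes had a median of -0.27 over 15 tested, with 1 that stood apart lower, and the median turned to 0.03 without ALA colitis replicate 2. Nr1d2 and Nr1d1, the REV-ERB repressors of the clock, differed by -1.07 ± 0.65 and -0.70 ± 0.56. Haem and iron handling genes had a median of 0.06 over 24 tested, with 2 that stood apart higher, and the median was 0.28 without ALA colitis replicate 2 and 0.27 without healthy replicate 1.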
